A study of Bos taurus with 8 samples.

Results

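Cloned cattle embryos that overexpressed the histone demethylase KDM4E were set against embryos from in vitro fertilisation (IVF), to find which transcripts KDM4E leaves away from the IVF level. The 2 KDM4E libraries and the 3 IVF libraries are 5 of the 8 libraries of the study. Genes were kept where FPKM, a fragment count scaled by transcript length and by library size, was at least 1 in 2 or more of these 5 libraries. This kept 13798 of 21258 features, of which 9822 carry a symbol. A feature under 1 FPKM in all IVF libraries was kept only where both KDM4E libraries reached 1, so its direction was fixed by the filter. A feature under 1 FPKM in both KDM4E libraries was kept only through IVF. The other 3 libraries, from cloned embryos without overexpression, were not compared here, but they entered the estimate of spread behind the p-values. Their levels are given beside the comparison.

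All groups were Holstein embryos at the eight-cell stage, with 8 embryos pooled for each library. The IVF embryos had no stated genetic or drug treatment. The KDM4E embryos (KDM4E-SCNT) and the plain clones (SCNT) share the cloning step, and KDM4E-SCNT adds the overexpression. The labels give neither the way KDM4E was introduced, nor the donor cell, nor the hours of culture, nor batches, and they do not say whether pools of a group came from separate cultures. P-values therefore measure the spread between these samples only, which may be technical. In pooled embryos, fewer cells holding a transcript and less of it per cell cannot be told apart.

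Somatic cell nuclear transfer places the nucleus of a body cell in an egg without its own nucleus, and the egg has to return that nucleus to an embryonic state. Trimethylation of lysine 9 on histone H3 (H3K9) marks silent chromatin in the donor nucleus and is a known barrier to this return, and enzymes of the KDM4 family remove it. Cattle embryos live on transcripts stored by the oocyte until their own genome is switched on around the stage sampled here. Clearance of stored transcripts and onset of new ones, ribosome genes among them, run side by side at that time.

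Oocyte and embryo markers were looked at first. All 8 were measured in every library, with the oocyte growth factor BMP15 at 1593, 872 and 1384 FPKM in IVF replicates 1 to 3 and at 599.7 and 829 in KDM4E-SCNT replicates 1 and 2. The oocyte already holds these transcripts, so they cannot tell embryos from oocytes or give the stage. All 8 were lower on average in KDM4E-SCNT than in IVF, with a median log2(FPKM + 1) difference of -0.77. In SCNT the median difference was -3.33. Over all features these medians were -0.06 and -0.53. No feature carries the symbol KDM4E. LOC524768 on chromosome 15 (15664825 to 15668339, build UMD3.1), described as similar to the relative KDM4C, was taken for it, without certainty that it is this gene. Its level was 109, 88.3 and 109 FPKM across the IVF libraries. KDM4E-SCNT had 102 and 206 FPKM, so replicate 1 lay inside the IVF range and replicate 2 above it. SCNT had 25.4, 29.95 and 33.9 FPKM in replicates 1 to 3, below both KDM4E-SCNT libraries, a difference that was not tested. KDM4E-SCNT minus IVF on the log2(FPKM + 1) scale was 0.51 ± 0.34 (standard error, limma adjusted p = 0.443). KDM4C, another H3K9 demethylase, differed from IVF by 0.13 ± 0.33 (adjusted p = 0.867). It stood at 18.7 and 27.6 FPKM in KDM4E-SCNT and 7.09, 8.69 and 8.42 in SCNT. KDM4A, whose row describes a different gene, differed from IVF by 0.63 ± 0.35 (adjusted p = 0.332), and its KDM4E-SCNT and SCNT levels overlapped. None of the 3 tested members of this family passed in limma, and none had an unadjusted p under 0.05.

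The KDM4E-SCNT libraries were not alike. Replicate 1 lay at a median absolute log2 difference of 0.679 to 0.776 from the IVF libraries and replicate 2 at 0.44 to 0.574, while the IVF libraries lay 0.393 to 0.566 from each other. The distances of replicate 2 overlapped those within IVF, those of replicate 1 did not, and the pair lay 0.527 apart. Among IVF libraries replicates 1 and 2 were the furthest apart (0.566), and replicate 2 had the lowest levels of the oocyte gene H1FOO and of TUBG2, given with the falls. Summed FPKM ran from 702294 to 804189 over the 5 libraries, and 11839 to 13050 features reached 1 FPKM. The files give no fragment counts, so depth is unknown.

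Of the 13798 features, 1001 were called at a limma adjusted p under 0.05, which is 7.25%. They were nearly all higher in KDM4E-SCNT than in IVF: 904 rose (6.55% of features tested) and 97 fell (0.703%). At least a 4-fold difference was reached by 455 of the rises and 40 of the falls. The median difference over all features was -0.06 with a median standard error of 0.42. Unadjusted p was under 0.05 for 2817 features (20.4%). Both KDM4E-SCNT libraries lay above all IVF libraries for 2636 features (19.1%) and below all of them for 2036 (14.8%). For 2020 features (14.6%) the 95% interval of the difference lay inside a 2-fold change either way, and for the rest the data do not show that IVF and KDM4E-SCNT are that close.

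**Figure D1:**
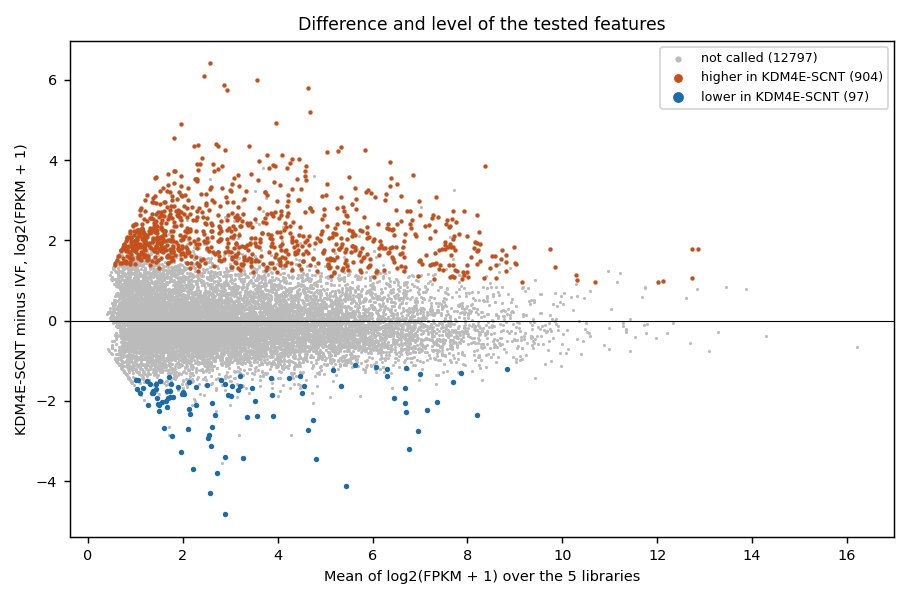
Each point is 1 of the 13798 tested features. The horizontal axis is its mean level over the 5 libraries and the vertical axis is KDM4E-SCNT minus IVF, both as log2(FPKM + 1). The 904 rises (orange) extend over the whole range of levels and outnumber the 97 falls (blue).

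Replicate 1 carried more of the difference. It was further from the IVF mean than replicate 2 for 746 of the 904 rises and 57 of the 97 falls. Without replicate 1 limma called 277 rises and 20 falls, and without replicate 2 it called 1038 and 233. In these fits the lone KDM4E-SCNT library is assumed to vary like the other groups. Without IVF replicate 2 the falls numbered 194, and without IVF replicate 3 they numbered 61. No feature called here was called in the opposite direction under any of the 15 alternative settings.

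For the rises, the levels in plain SCNT embryos stood on the same side of IVF and further out. The 904 rises had a median log2 difference from IVF of 2.01 in KDM4E-SCNT (2.34 in replicate 1 and 1.70 in replicate 2), and the median for SCNT over the same features was 3.18. Both KDM4E-SCNT libraries lay below all SCNT libraries for 651 of the 904, above all of them for 80, and overlapped them for 173. These shares were 72.0% below and 8.85% above, beside 19.8% and 41.0% of all tested features. For the 97 falls the median was -1.84 in KDM4E-SCNT and -2.34 in SCNT. Both KDM4E-SCNT libraries lay above all SCNT libraries for 36 of the 97, below them for 5, and overlapped them for 56. The 37.1% above is near the 41.0% of all tested features, and the 5.15% below stands beside 19.8%. Over all tested features the median difference from IVF was -0.06 in KDM4E-SCNT and -0.53 in SCNT. These values share the IVF libraries and are given side by side only.

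Genes of cytosolic ribosomal proteins, the structural parts of the ribosome, had the largest share of rises among the 35 gene lists examined. All 75 members in the files were tested, 59 rose (78.7%) and 16 did not pass, against 6.55% of all features. The median log2 difference was 1.81 (2.00 in replicate 1 and 1.66 in replicate 2), beside -0.06 over all features. Of the 75, 69 had both KDM4E-SCNT libraries above all IVF libraries, which held for 19.1% of all features. In SCNT the median difference from IVF over the same genes was 3.21. They took 1.71% to 1.83% of summed FPKM in IVF, 5.59% and 3.74% in KDM4E-SCNT, and 9.71% to 12.3% in SCNT. No member fell in limma, with 0 below at an unadjusted p under 0.05, while 67 were above at that level.

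RPL34, of the large subunit, stood at 24.2, 32.7 and 23.7 FPKM in the IVF libraries and 659 and 275 in KDM4E-SCNT. This is a 15.5-fold difference (log2 3.95 ± 0.35, limma adjusted p = 0.000104). RPL23, also of the large subunit, stood at 32.5, 41.6 and 50.7 FPKM in IVF and 765 and 354 in KDM4E-SCNT (log2 3.64 ± 0.35). RPL18 stood at 16.3, 13.7 and 17.6 FPKM in IVF and 284 and 140.2 in KDM4E-SCNT (log2 3.58 ± 0.36). In all 3 genes replicate 1 was the higher KDM4E-SCNT library, and neither overlapped IVF. RPL22L1, a paralogue of RPL22, went from 2.9, 7.73 and 7.02 FPKM to 166 and 56.3 (log2 3.91 ± 0.47, adjusted p = 0.000411). At the low end RPL4 differed by 0.10 ± 0.28 (adjusted p = 0.884), RPL7A by 0.16 ± 0.31 (adjusted p = 0.827) and RPS2 by 0.24 ± 0.27 (adjusted p = 0.674). Ribosomal protein genes have many processed copies in the genome that can share reads with them. Of the 75, 36 rose without KDM4E-SCNT replicate 1.

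**Figure D2:**
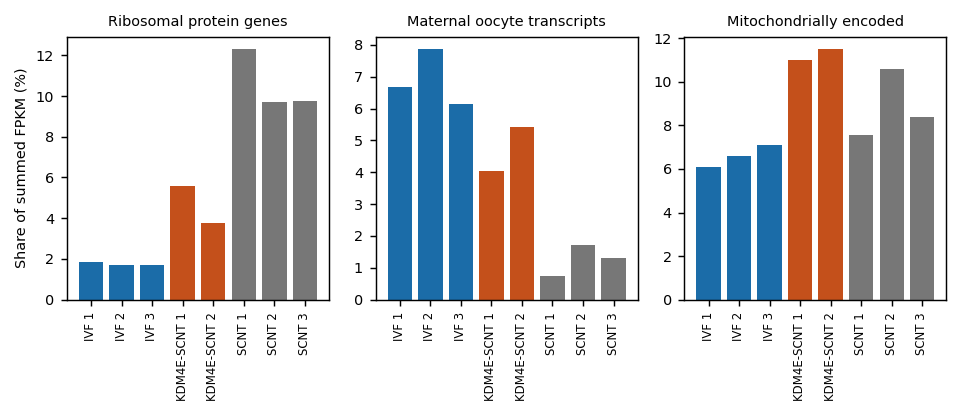
Bars give the share of summed FPKM, in percent, taken by ribosomal protein genes, maternal oocyte transcripts and mitochondrially encoded genes in each library of the 3 groups. KDM4E-SCNT lies between IVF and SCNT in the first panel (5.59% and 3.74%) and in the second (4.04% and 5.42%), and above IVF in the last (11% and 11.5%).

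Genes that build and serve the ribosome rose in smaller shares. Of 70 ribosome biogenesis genes 15 rose (21.4%, beside 6.55% of all features), 0 fell and 55 did not pass in limma (30 above and 0 below at an unadjusted p under 0.05), with a median of 0.60 in KDM4E-SCNT and 1.34 in SCNT. POP5, a subunit of RNase P and RNase MRP, stood at 0.72, 0.73 and 1.72 FPKM in IVF and 78.8 and 20.2 in KDM4E-SCNT (log2 4.36 ± 0.48, adjusted p = 0.00025). It needed KDM4E-SCNT to pass the filter. NOP16, a nucleolar protein, stood at 18.9, 18.7 and 35.8 FPKM in IVF and 311 and 171 in KDM4E-SCNT (log2 3.25 ± 0.36). EMG1, a methyltransferase of ribosomal RNA, and POLR1C, shared by RNA polymerases I and III, rose by 3.11 ± 0.38 and 2.57 ± 0.36. Their libraries did not overlap between the groups. The list had 4 rises without KDM4E-SCNT replicate 1, and without replicate 2 it had 20.

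Of 45 translation factors 8 rose (17.8%, beside 6.55% of all features) and 37 did not pass (median 0.59 in KDM4E-SCNT and 1.16 in SCNT). EIF1AX, an initiation factor, stood at 181, 177 and 183 FPKM in IVF and 782 and 468 in KDM4E-SCNT (log2 1.74 ± 0.28, adjusted p = 0.00239). The release factor ETF1 rose by 2.23 ± 0.36. EIF6, which keeps ribosomal subunits apart, rose by 3.09 ± 0.55, and the initiation factor subunit EIF3G by 2.04 ± 0.43, and both lost the call without KDM4E-SCNT replicate 1. That setting left 2 rises in the list. Of 74 mitochondrial ribosomal proteins 13 rose (17.6%) and 61 did not pass (median 0.39, and 1.15 in SCNT). MRPL30 stood at 6.64, 7.5 and 10.7 FPKM in IVF and 129 and 80.9 in KDM4E-SCNT (log2 3.50 ± 0.33, adjusted p = 0.000104), MRPS24 rose by 2.73 ± 0.41 and MRPL41 by 2.22 ± 0.35. These 3 calls held under every alternative, and without KDM4E-SCNT replicate 1 the list had 8 rises.

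Part of the respiratory chain genes rose. Of 77 nuclear genes of oxidative phosphorylation 24 rose and 53 did not pass (median 0.49, and 1.35 in SCNT), against 6.55% of all features. NDUFA5, a subunit of complex I, stood at 4.57, 11.9 and 8.25 FPKM in IVF and 105 and 105 in KDM4E-SCNT (log2 3.61 ± 0.36, adjusted p = 0.000104). Subunits of complex IV, COX7A2 and COX4I1, rose by 2.41 ± 0.30 and 2.11 ± 0.31, and UQCR10 of complex III by 2.09 ± 0.31. These 4 calls held under every alternative. The list had 10 rises without KDM4E-SCNT replicate 1.

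The 12 tested mitochondrially encoded genes were all higher on average in KDM4E-SCNT than in IVF. By the test 6 of them rose (50%, beside 6.55% of all features), and the median over the 12 was 0.96 (0.38 in SCNT). ND1, of complex I, stood at 4404, 5135 and 5749 FPKM in IVF, 10689.7 and 10376 in KDM4E-SCNT and 5952, 8029 and 6122 in SCNT replicates 1 to 3 (log2 against IVF 1.06 ± 0.24, adjusted p = 0.0161). Both KDM4E-SCNT libraries were above all other libraries here. ND3 stood at 3005, 3634 and 2905 FPKM in IVF, 5818 and 6468 in KDM4E-SCNT and 2109.5, 3147 and 2063 in SCNT (log2 0.95 ± 0.26, adjusted p = 0.0431). ND5 rose by 1.15 ± 0.28, COX1 by 0.99 ± 0.24, ND4L by 0.97 ± 0.26 and ND6 by 1.01 ± 0.29. COX2 is listed at 0 in IVF replicate 3 and in 2 SCNT libraries, which can be a failed estimate. The calls in this list depended on the scaling, with 3 under median-ratio scaling, 2 under upper-quartile scaling and 1 under quantile normalization, and on single libraries, with 0 without IVF replicate 1 or without KDM4E-SCNT replicate 1 and 2 or 3 without each other library. With the replicate number as a block 3 passed. The median stayed between 0.72 and 0.95 under these scalings and leave-outs. Mitochondrial transcripts took 6.08% to 7.1% of summed FPKM in IVF against 11% and 11.5% in KDM4E-SCNT. Of 26 genes of mitochondrial protein import 2 rose (7.69%, near the 6.55% of all features). They were TIMM10B (3.73 ± 0.48) and TIMM10 (1.76 ± 0.31), chaperones of the intermembrane space, and TIMM10 lost the call without KDM4E-SCNT replicate 1. TIMM8B (1.07 ± 0.31, limma adjusted p = 0.0536) did not pass.

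Proteasome, splicing and transcription machinery held scattered rises. Of 43 proteasome genes 6 rose (14%, beside 6.55% of all features) and 37 did not pass (median 0.47, and 1.14 in SCNT). The core subunit PSMA2 stood at 7.95, 6.61 and 6.56 FPKM in IVF and 90.7 and 64.1 in KDM4E-SCNT (log2 3.27 ± 0.30, adjusted p = 0.000104), PSMA1 rose by 3.79 ± 0.43, PSMB6 by 2.70 ± 0.37 and PSMA3 by 2.35 ± 0.38. Of 56 splicing genes 6 rose (10.7%) and 50 did not pass (median 0.51, and 1.16 in SCNT). SF3B5, of the U2 particle, stood at 159, 115 and 152 FPKM in IVF and 875 and 423 in KDM4E-SCNT (log2 2.10 ± 0.32), and the RNA-binding proteins HNRNPU, HNRNPA2B1 and HNRNPM rose by 1.57 ± 0.34, 1.69 ± 0.38 and 1.31 ± 0.31. Of 63 genes of RNA polymerase II and general transcription 11 rose (17.5%) and 52 did not pass. Their median was 0.17 in KDM4E-SCNT and -0.02 in SCNT, beside -0.06 and -0.53 over all features. TAF11, of TFIID, stood at 11.2, 16.6 and 13.6 FPKM in IVF and 142 and 68.8 in KDM4E-SCNT (log2 2.77 ± 0.36), the polymerase subunit POLR2G rose by 1.40 ± 0.27, and the Mediator subunits MED28 and MED31 rose by 1.79 ± 0.36 and 1.80 ± 0.36. Without KDM4E-SCNT replicate 1 the rises numbered 3 in the proteasome list, 1 in splicing and 1 in transcription. The splicing list had 3 without IVF replicate 1 and 10 without KDM4E-SCNT replicate 2. PSMA2, PSMA1, PSMB6, SF3B5 and TAF11 kept their calls under every alternative, HNRNPM lost it in 4, and the other 6 named here lost it without KDM4E-SCNT replicate 1.

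**Figure D3:**
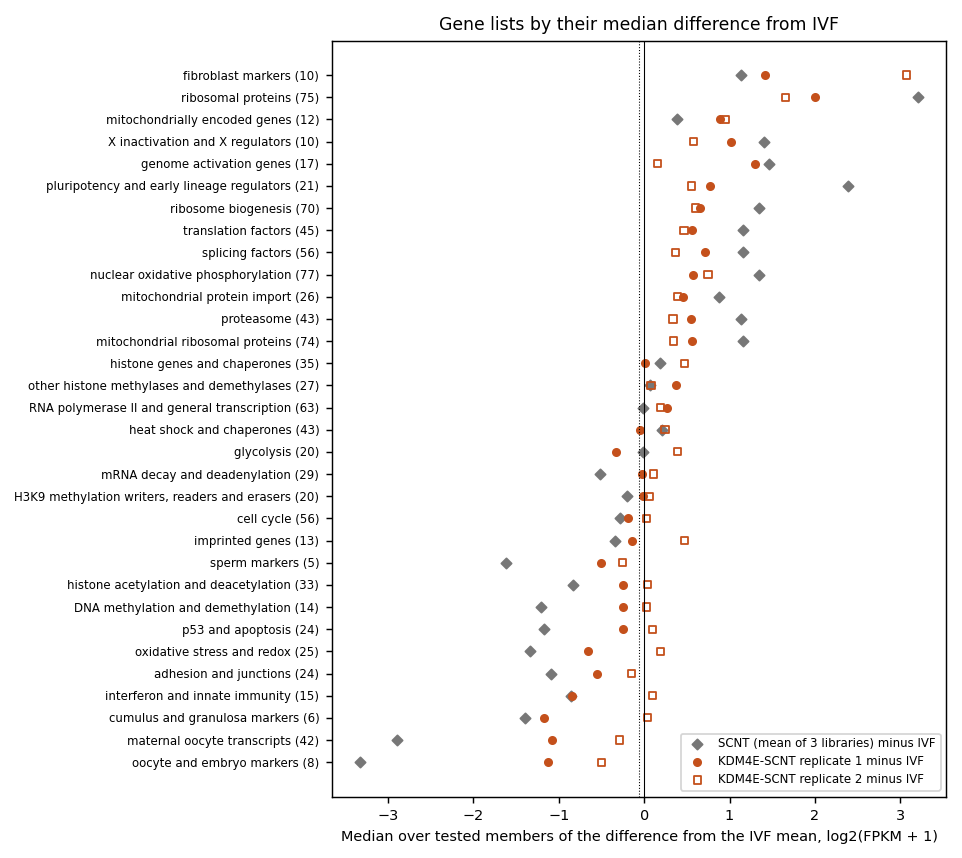
For each gene list with at least 5 tested members (number in brackets), symbols give the median difference from the IVF mean in KDM4E-SCNT replicate 1, KDM4E-SCNT replicate 2 and the mean of SCNT, on the log2(FPKM + 1) scale. The dotted line marks -0.06, the median over all features in KDM4E-SCNT. In SCNT that median was -0.53. Ribosomal proteins (2.00 and 1.66) and fibroblast markers (1.42 and 3.08) lie furthest to the right, and oocyte markers (-1.13 and -0.50) are among those furthest to the left.

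Genes switched on with the embryonic genome and regulators of pluripotency rose in part. Of 17 tested genome activation genes 5 rose (29.4%, beside 6.55% of all features) and 12 did not pass, with a median of 0.74 that was 1.30 in replicate 1 and 0.16 in replicate 2 (1.46 in SCNT). Only 17 of the 29 listed genes matched a symbol. DUXA, ARGFX, LEUTX, ZSCAN4, ZSCAN5B, TRIM43, PRAMEF12 and TPRX1 were among those that did not. Loci described as similar to TRIM43, ZSCAN5B or PRAME genes are counted with the families below, with falls and a rise among them. ZFP42, a zinc finger protein of early embryos and stem cells, stood at 0.83, 1.54 and 12.8 FPKM in IVF, 196 and 72.6 in KDM4E-SCNT and 433, 289 and 526 in SCNT (log2 against IVF 4.91 ± 0.73, adjusted p = 0.00185). UBTFL1 stood at 1.85, 1.44 and 6.29 FPKM in IVF and 38.1 and 12.6 in KDM4E-SCNT (log2 2.64 ± 0.53). KLF4, a pluripotency factor, stood at 30.1, 30.7 and 24.1 FPKM in IVF and 167 and 53.7 in KDM4E-SCNT (log2 1.72 ± 0.40), and the cyclin CCNA1 rose by 1.53 ± 0.42. Replicate 1 was more than 2-fold above replicate 2 for ZFP42, UBTFL1 and KLF4. KLF4 lost the call in 4 of the alternatives and CCNA1 in 9. The high-mobility-group proteins HMGN1 and HMGN2 differed by -0.75 ± 0.34 and -0.76 ± 0.28 and did not pass (adjusted p = 0.229 and 0.142).

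Of 21 tested pluripotency and early lineage regulators 6 rose (28.6%, beside 6.55% of all features) and 15 did not pass (median 0.66, and 2.39 in SCNT). NANOG, which marks the pluripotent lineage, stood at 7.58, 1.86 and 3.09 FPKM in IVF, 18.5 and 20.1 in KDM4E-SCNT and 107, 59 and 90.6 in SCNT (log2 2.13 ± 0.45, adjusted p = 0.0105). PRDM14, a repressor in pluripotent cells, stood at 2.7, 0.25 and 3.84 FPKM in IVF and 51.6 and 13.9 in KDM4E-SCNT (log2 3.31 ± 0.60). NANOG was alike in both KDM4E-SCNT libraries and PRDM14 differed more than 3-fold between them. DPPA4 (2.10 ± 0.55) and the trophectoderm regulator TEAD4 (1.44 ± 0.40) rose as well, and both were low in IVF, at 2.15, 0.38 and 1.8 FPKM for DPPA4 and 0, 0.11 and 0.21 for TEAD4. TEAD4 passed the filter through KDM4E-SCNT alone. POU5F1, another core pluripotency factor, stood at 35.4, 19.6 and 19.9 FPKM in IVF and 7.77 and 24 in KDM4E-SCNT (-0.76 ± 0.47, adjusted p = 0.408). SOX2 differed by -0.40 ± 0.37 (adjusted p = 0.598). Without KDM4E-SCNT replicate 1 the list had 1 rise and the genome activation list 2, and without IVF replicate 3 the pluripotency list had 3. ZFP42 held under every alternative, and NANOG, PRDM14 and UBTFL1 lost the call only without KDM4E-SCNT replicate 1.

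Transcripts stored by the oocyte stood a little below the IVF level. Of 42 tested maternal transcripts 2 fell, 0 rose and 40 did not pass in limma (13 below and 0 above at an unadjusted p under 0.05), against 0.703% falls over all features. The median was -0.64, -1.08 in replicate 1 and -0.29 in replicate 2, and -2.89 in SCNT. Over all features the medians were -0.06 in KDM4E-SCNT and -0.53 in SCNT. For 41 of the 42 the difference was below 0. For 12 both KDM4E-SCNT libraries lay below all IVF libraries, which held for 14.8% of all features. H1FOO, the linker histone of oocytes, stood at 979, 223 and 811 FPKM in IVF, 99.8 and 120 in KDM4E-SCNT and 22.9, 25.8 and 19.8 in SCNT (log2 against IVF -2.35 ± 0.50, adjusted p = 0.0112). IVF replicate 2 was the lowest IVF library and still above both KDM4E-SCNT libraries. ZAR1L, which binds maternal mRNA, stood at 925, 428 and 661 FPKM in IVF and 256 and 299.6 in KDM4E-SCNT (log2 -1.20 ± 0.33, adjusted p = 0.0446).

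Other maternal genes lay nearer to IVF. BMP15 differed by -0.82 ± 0.31 (adjusted p = 0.143), and the oocyte transcription factor LHX8 by -1.11 ± 0.41 (adjusted p = 0.139). GDF9, the partner of BMP15, stood at 384, 435 and 317 FPKM in IVF and 138 and 450.3 in KDM4E-SCNT, so replicate 1 lay below and replicate 2 above all IVF libraries (-0.59 ± 0.42, adjusted p = 0.475). DPPA3, a maternal protector of DNA methylation, stood at 4577, 5698 and 5176 FPKM in IVF and 3824 and 4497 in KDM4E-SCNT (-0.31 ± 0.26, adjusted p = 0.557). DPPA3 was the closer of the pair to IVF. In only 2 of the 42 did the 95% interval lie inside a 2-fold change. The falls numbered 7 without IVF replicate 2, 6 without KDM4E-SCNT replicate 2, and 0 without IVF replicate 3 or without KDM4E-SCNT replicate 1. Of 29 genes of mRNA decay 2 rose (6.90%, near the 6.55% of all features). EXOSC1 of the RNA exosome (2.13 ± 0.41) lost the call without KDM4E-SCNT replicate 1, and the m6A reader YTHDF2 (1.30 ± 0.36) lost it in 11 of 15 alternatives, 4 scalings among them. The deadenylase CNOT7 was lower by an amount that did not pass (-0.99 ± 0.31, adjusted p = 0.0773).

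The largest falls with a symbol were 12 genes, H1FOO and ZAR1L among them. LOC786377, a TRIM64-like gene on chromosome 29, stood at 267, 242 and 276 FPKM in IVF, 52.6 and 58 in KDM4E-SCNT and 5.54, 9.92 and 6.92 in SCNT (log2 against IVF -2.22 ± 0.32, adjusted p = 0.00111). TUBG2, a gamma-tubulin, stood at 603, 97.5 and 390 FPKM in IVF and 70 and 68.8 in KDM4E-SCNT (log2 -2.02 ± 0.56, adjusted p = 0.0459). IVF replicate 2 was again the lowest of its group for TUBG2, and the groups did not overlap. CAT, the enzyme that splits hydrogen peroxide, stood at 66.3, 64.4 and 67.6 FPKM in IVF and 30.9 and 29.6 in KDM4E-SCNT (log2 -1.10 ± 0.30, adjusted p = 0.0444), with little spread within each group. Speedy A-like LOC618542 fell by 1.81, ADAD1, a testis RNA-binding protein, by 1.63, PRAME-like LOC530538 by 1.53 and LINGO2 by 1.44. CRLF3 fell by 1.24, the SCAN zinc finger gene LOC789989 by 1.21 and COA1, a respiratory chain assembly factor, by 1.16. LOC786377 was called under every alternative, and the other 11 lost the call in 2 to 9 settings, each of them without KDM4E-SCNT replicate 1.

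**Figure D4:**
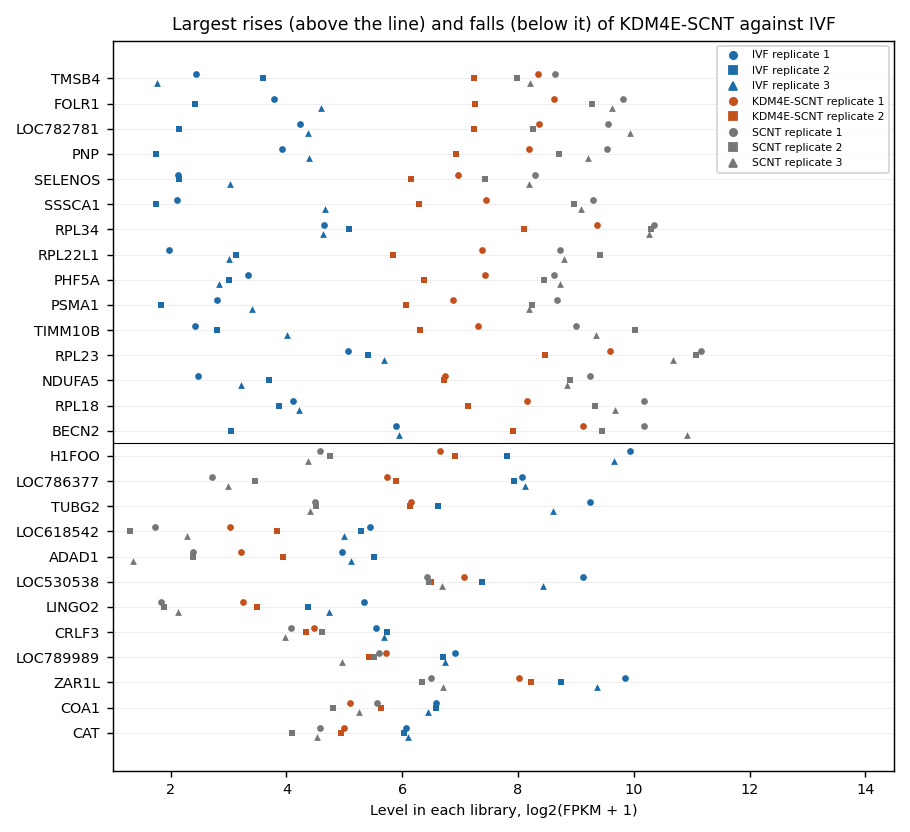
The level of each gene in each library as log2(FPKM + 1), for the 15 largest rises (above the line) and the 12 largest falls (below it). Colours mark the groups and shapes the replicates; in every gene shown both KDM4E-SCNT libraries lie outside the IVF range, as the rule for choosing them requires.

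Among the largest rises were genes of several kinds. TMSB4, a thymosin that binds actin, stood at 4.44, 11 and 2.4 FPKM in IVF and 324 and 150.3 in KDM4E-SCNT (log2 5.19 ± 0.49, adjusted p = 0.000104). It is a short feature on chromosome 1 whose description is shared by ENSBTAG00000038488.2 on chromosome X, the most abundant feature of every library, so reads of the 2 copies may be split between them. FOLR1, a folate receptor, stood at 12.8, 4.36 and 23.2 FPKM in IVF and 392 and 151 in KDM4E-SCNT (log2 4.33 ± 0.54). PNP, which breaks down purine nucleosides, stood at 14.2, 2.36 and 19.8 FPKM in IVF and 292 and 120.1 in KDM4E-SCNT (log2 4.21 ± 0.66). FOLR1 and PNP had their lowest level in IVF replicate 2. SELENOS, a selenoprotein of the endoplasmic reticulum, rose by 4.13 ± 0.40, and the splicing factor subunit PHF5A went from 9.13, 7.02 and 6.1 FPKM to 171 and 82.3 (log2 3.85 ± 0.35). The uncharacterised LOC782781 rose by 4.22 ± 0.67, SSSCA1 by 4.03 ± 0.70 and BECN2, a beclin relative with a role in autophagy, by 3.56 ± 0.79 (adjusted p = 0.0202). SSSCA1 and BECN2 lost the call without KDM4E-SCNT replicate 1.

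Core histone genes of a cluster on chromosome 23, which package newly made DNA, rose over IVF, and their summed level in KDM4E-SCNT was above that in every SCNT library as well. The grouping by description and place was made after values were seen. Of 48 tested features described as histones on chromosome 23 between 30713382 and 31918508 (UMD3.1), 24 rose (50%, beside 6.55% of all features), 0 fell and 24 did not pass in limma. At an unadjusted p under 0.05, 32 were above and 0 below. The median log2 difference from IVF was 1.74 in KDM4E-SCNT (1.55 in replicate 1 and 2.22 in replicate 2) and 0.79 in SCNT. Their summed FPKM was 1560, 2170 and 2010 in IVF, 4120 and 4790 in KDM4E-SCNT and 2150, 1750 and 3730 in SCNT replicates 1 to 3. The H2B gene LOC100295221 stood at 64.2, 30.8 and 80.1 FPKM in IVF, 323 and 593 in KDM4E-SCNT and 108, 112 and 93 in SCNT (log2 against IVF 2.99 ± 0.40, adjusted p = 0.000825). The H2B gene LOC616868 stood at 26.4, 18.1 and 25.6 FPKM in IVF, 161 and 303 in KDM4E-SCNT and 60.1, 50 and 54.2 in SCNT (log2 3.21 ± 0.34). Both KDM4E-SCNT libraries exceeded all others for this pair. HIST1H2BJ rose from 0.69, 0.95 and 8.37 FPKM to 54 and 74.6 (log2 4.36 ± 0.63), with higher values in SCNT (195, 205 and 444). LOC104968446 and LOC617875 rose but were under 1 FPKM in every IVF library, so their direction was fixed by the filter. HIST1H2BA, HIST1H3C, HIST1H2BJ, ENSBTAG00000039492.1 and HIST1H2AC (ENSBTAG00000031768.1) reached 1 FPKM in a single IVF library. These rises also needed KDM4E-SCNT to pass the filter. The rises numbered 17 without either KDM4E-SCNT library. Members of this gene family can share reads, which was not tested.

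Among other histone genes, the H2A variants H2AFY (2.05 ± 0.37) and H2AFV (1.68 ± 0.35) rose. The replacement histone H3F3A differed by 0.45 ± 0.27 (adjusted p = 0.38) and the linker histone HIST1H1A by 0.39 ± 0.31 (adjusted p = 0.532). H1F0, a linker histone of differentiated cells, stood at 7.39, 3.77 and 4.12 FPKM in IVF, 3.35 and 6.81 in KDM4E-SCNT and 57.4, 38.9 and 115 in SCNT, and did not pass (-0.02 ± 0.47, 95% interval -1.04 to 1.01). Over the list of histone genes and chaperones 7 of 35 rose (20%), 1 fell (H1FOO, 2.86%) and 27 did not pass. Of all features 6.55% rose and 0.703% fell.

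Some of the falls lay in families with several described members side by side in the genome, a grouping made after the values were seen. The families and regions described here hold 26 of the 97 falls, and 71 lie elsewhere. On chromosome 29 between 4690649 and 5892565, which holds TRIM64-like, PRAME-like and related loci, 9 of 52 tested features fell and 1 rose (UBTFL1), against 0.703% falls over all features. BGI_novel_G003101, a PRAME-like locus at 5476086 to 5478255 without gene annotation, stood at 109, 135 and 165 FPKM in IVF, 4.84 and 9.26 in KDM4E-SCNT and 0.29, 7.46 and 0.06 in SCNT (log2 against IVF -4.13 ± 0.70, adjusted p = 0.00348). The TRIM-like BGI_novel_G003106 stood at 226, 308 and 259.6 FPKM in IVF and 26.9 and 28.3 in KDM4E-SCNT (log2 -3.20 ± 0.49). At both loci every IVF library was at least several-fold above every clone. Some of the 9 overlap in position, among them BGI_novel_G003097, BGI_novel_G003098 and BGI_novel_G003099, and they make 6 separate positions. BGI_novel_G003098 was under 1 FPKM in both KDM4E-SCNT libraries, so it passed the filter through IVF alone. The median over the 52 features was -0.68 in KDM4E-SCNT and -2.68 in SCNT.

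Falls were also grouped on other chromosomes. On chromosome 18 between 63090945 and 63990193, 6 of 37 tested features fell (16.2%) and 3 rose (8.11%), beside 0.703% and 6.55% of all features. Of the falls 3 were ZSCAN5-like and 3 were neighbours described only as hypothetical. The ZSCAN5-like ENSBTAG00000000688.4 stood at 128, 143 and 182 FPKM in IVF and 40.3 and 36.6 in KDM4E-SCNT (log2 -1.93 ± 0.37, adjusted p = 0.00573). On chromosome 16 between 55096211 and 56881373, 4 of 62 fell and 3 rose, and all 4 falls were PRAME-like, such as ENSBTAG00000040419.2 at 54.6, 49.6 and 51.2 FPKM in IVF and 3.32 and 13.8 in KDM4E-SCNT (log2 -2.72 ± 0.65). Of these falls BGI_novel_G001350 was under 1 FPKM in both KDM4E-SCNT libraries and passed the filter through IVF alone. A PRAME-like neighbour, BGI_novel_G001364, rose (1.95 ± 0.43). Of 8 tested FAM90A-like features, 4 fell (50%, beside 0.703% of all features) and 4 did not pass, with a median of -1.72. Of these falls BGI_novel_G002932 and BGI_novel_G002923 were under 1 FPKM in both KDM4E-SCNT libraries, so they passed the filter through IVF alone. By description over the whole genome, 7 of 45 TRIM features, 5 of 35 PRAME features and 5 of 33 SCAN-domain features fell. Without KDM4E-SCNT replicate 1 the falls were 7 on chromosome 29, 1 on chromosome 18, 1 on chromosome 16 and 1 of the FAM90A-like features. Without IVF replicate 3 they were 8, 3, 0 and 3. Without KDM4E-SCNT replicate 2 chromosome 18 had 3, and without IVF replicate 1 chromosome 16 had 2. Over the genome the PRAME and SCAN-domain falls numbered 1 and 0 without KDM4E-SCNT replicate 1, and 1 and 2 without IVF replicate 3. Members of such families can share reads, which was not tested.

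**Figure D5:**
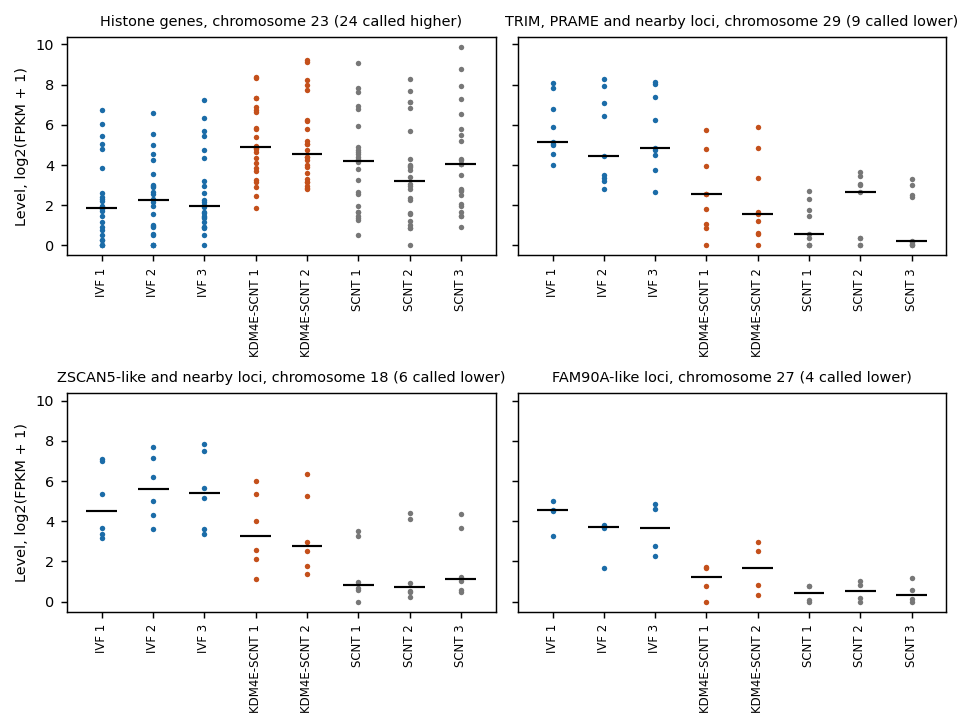
Points are called features of each named family in each library, as log2(FPKM + 1), and black bars are medians; features were plotted because they were called, so the gap between IVF and KDM4E-SCNT is part of the choice. The medians of the 24 histone rises are higher in both KDM4E-SCNT libraries than in any IVF or SCNT library.

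Enzymes of histone H3 lysine 9 methylation, the mark that KDM4E acts on, gave no call. Of 20 tested writers, readers and erasers 0 rose and 0 fell in limma, with 2 above and 1 below at an unadjusted p under 0.05. Of all features 6.55% rose and 0.703% fell. The median of the list was 0.04 in KDM4E-SCNT and -0.21 in SCNT, beside -0.06 and -0.53 over all features. Without IVF replicate 3, and with the replicate number as a block, 1 rose. ATF7IP, a partner of the methyltransferase SETDB1, was nearest to the threshold at 5.98, 7.38 and 14 FPKM in IVF and 26.1 and 19.3 in KDM4E-SCNT (1.29 ± 0.37, adjusted p = 0.0541). The methyltransferase EHMT2 differed by -0.92 ± 0.37 (adjusted p = 0.176), the reader CBX5 by 0.84 ± 0.31 (adjusted p = 0.14) and SUV39H2 by -0.63 ± 0.36 (adjusted p = 0.353). For 6 of the 20 the 95% interval lay inside a 2-fold change, and for the other 14 it did not.

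Other chromatin lists held a few rises, beside 6.55% of all features. Of 14 genes listed under DNA methylation 2 rose (14.3%). They were GADD45A (1.25 ± 0.33), linked to demethylation and DNA damage, and TRDMT1 (1.81 ± 0.49), which methylates tRNA. Of 27 other histone methylases and demethylases 3 rose (11.1%). EED, a core subunit of Polycomb complex PRC2, stood at 13.2, 15.3 and 14.9 FPKM in IVF and 40.5 and 43.6 in KDM4E-SCNT (log2 1.47 ± 0.29, adjusted p = 0.0072). The H3K36 methylase SETD2 (2.31 ± 0.47) and the X-linked H3K27 demethylase KDM6A (1.59 ± 0.40) rose as well. Of 33 genes of histone acetylation 3 rose (9.09%), HAT1 (2.33 ± 0.40), SIRT1 (1.93 ± 0.34) and KAT2B (1.91 ± 0.42). Each of these 8 calls ended without KDM4E-SCNT replicate 1, and GADD45A lost it in 11 of 15 alternatives, TRDMT1 in 9 of 14 and KDM6A in 6 of 14.

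Chromosome X was examined as a whole after the values were seen. Of its 657 tested features 94 rose (14.3%, beside 6.55% of all features) and 5 fell. The median was 0.17 in KDM4E-SCNT and -0.20 in SCNT, beside -0.06 and -0.53 over all features. Some of the rises lay close together. Between 35382935 and 37563025, 12 of 37 features rose and 0 fell in limma (16 above and 1 below at an unadjusted p under 0.05), such as ENSBTAG00000047804.1, described as a spermatid nuclear transition protein, at 119, 35.2 and 343 FPKM in IVF, 1669.8 and 1601 in KDM4E-SCNT and 1798, 1698 and 2719 in SCNT (log2 against IVF 3.84 ± 0.69). Several of the 12 overlap, 2 of them with identical values, and they make 8 separate positions. BGI_novel_G004945, which overlaps others, was listed at 0 in all IVF libraries and at 88.9 and 51.5 FPKM in KDM4E-SCNT, so it passed the filter through KDM4E-SCNT alone. The same holds for BGI_novel_G004912 and ENSBTAG00000045777.1, both under 1 FPKM in every IVF library. BGI_novel_G004940 reached 1 FPKM in IVF replicate 1 only and also needed KDM4E-SCNT to pass. Elsewhere on the chromosome MGC148328 and LOC781841 were among the 20 most abundant features of KDM4E-SCNT. LOC781841, also described as a spermatid protein, stood at 4861, 2388 and 6162 FPKM in IVF and 12985 and 15514 in KDM4E-SCNT (log2 1.77 ± 0.39, adjusted p = 0.013). The rises on chromosome X numbered 28 without KDM4E-SCNT replicate 1. Of 10 tested regulators of X inactivation HNRNPU (1.57 ± 0.34) and YY1 (1.22 ± 0.34) rose, and both are known for roles beyond the X chromosome. YY1 lost the call in 12 of the alternatives.

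Of 13 tested imprinted genes 3 rose (23.1%, beside 6.55% of all features), all from the SNRPN region of the genome in other mammals. NDN stood at 0.09, 0.09 and 0.84 FPKM in IVF, 10.1 and 5.01 in KDM4E-SCNT and 4.7, 5.27 and 5.5 in SCNT (log2 against IVF 2.66 ± 0.42, adjusted p = 0.00182). SNRPN stood at 4.7, 4.38 and 2.07 FPKM in IVF and 35.9 and 12.4 in KDM4E-SCNT (log2 2.29 ± 0.44), and UBE3A rose by 1.64 ± 0.39. NDN was near 0 in IVF and passed the filter through KDM4E-SCNT alone. SNRPN lost the call without KDM4E-SCNT replicate 1, UBE3A lost it in 4 of the alternatives, and the median of the list was -0.10.

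Metabolic, cell cycle and stress lists held few calls. The share of rises was 15% in glycolysis, 8.33% in p53 and apoptosis, 8.00% in redox genes, 6.67% in interferon genes, 5.36% in the cell cycle and 4.65% in chaperones, beside 6.55% of all features, and most of these lie near it. Of 20 genes in the glycolysis list PGK1 (2.65 ± 0.35), HK2 (2.42 ± 0.52) and PDHB (2.62 ± 0.56) rose. PDHB is a subunit of pyruvate dehydrogenase, which acts after glycolysis. PGK1 stood at 3.89, 5.12 and 8.42 FPKM in IVF and 49.5 and 32.7 in KDM4E-SCNT and held under every alternative. Of 56 cell cycle genes CDK1, the kinase of mitotic entry, stood at 107, 140 and 92.1 FPKM in IVF and 515 and 289 in KDM4E-SCNT (log2 1.79 ± 0.32, adjusted p = 0.00412), WEE1 (1.99 ± 0.43) and CCNA1 also rose, and 53 did not pass. Of 24 genes of p53 and apoptosis DIABLO (2.68 ± 0.57) and GADD45A rose. Of 25 redox genes TXN (2.26 ± 0.45) and TXN2 (1.87 ± 0.43) rose and CAT fell. CDO1, which oxidises cysteine, stood at 306, 195 and 241 FPKM in IVF and 59 and 149.8 in KDM4E-SCNT and did not pass (-1.36 ± 0.40, adjusted p = 0.0587). Of 43 chaperones DNAJB9 (2.65 ± 0.46) and CCT6A (2.18 ± 0.43) rose. Of 15 interferon genes IRF3 (2.12 ± 0.45) rose. Of 24 adhesion genes 0 rose and 0 fell in limma, with 3 above and 2 below at an unadjusted p under 0.05 and a median of -0.34. HK2, PDHB, CDK1, WEE1, CCNA1, DIABLO, GADD45A, TXN, TXN2, CAT, DNAJB9, CCT6A and IRF3 lost the call without KDM4E-SCNT replicate 1.

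Marker lists of other cell types showed some rises for fibroblasts. Of 15 fibroblast markers in the files 10 were tested, 5 rose (50%, beside 6.55% of all features) and 5 did not pass. None of the 5 rises reached 1 FPKM in 2 or more IVF libraries, so all of them needed KDM4E-SCNT to pass the filter. SPARC and CAV1 were under 1 FPKM in every IVF library, so their direction was fixed by the filter. The median over the 10 was 1.42 in replicate 1, 3.08 in replicate 2 and 1.14 in SCNT. S100A4 stood at 0, 2.19 and 0 FPKM in IVF, 25.1 and 35.1 in KDM4E-SCNT and 2.83, 4.88 and 5.37 in SCNT (log2 against IVF 4.38 ± 0.51, adjusted p = 0.000357). VIM, the intermediate filament of fibroblasts, stood at 5.46, 0.77 and 0.57 FPKM in IVF, 11.3 and 18.7 in KDM4E-SCNT and 0.65, 4.91 and 2.19 in SCNT (log2 2.57 ± 0.64, adjusted p = 0.0269). For both genes the KDM4E-SCNT libraries were above all others. VIM lost the call in 7 of 15 alternatives and LUM in 5. SPARC (3.89 ± 0.56), LUM (3.85 ± 0.94) and CAV1 (2.08 ± 0.42) rose, with LUM at 13.4 and 84.6 and SPARC at 10.4 and 53.3 FPKM in KDM4E-SCNT. The rises numbered 7 without KDM4E-SCNT replicate 1, and 3 without replicate 2, without IVF replicate 2, without IVF replicate 3 or with the replicate number as a block. Collagens were low, with COL1A1 at 2.36 and 2.35 FPKM in KDM4E-SCNT and 1.24, 0.59 and 1.23 in IVF, and LGALS1 stood at 10.9 and 127 FPKM in KDM4E-SCNT and 24, 8.13 and 9.99 in IVF. The markers summed to 49.6, 31 and 25.2 FPKM in IVF, 90.1 and 401 in KDM4E-SCNT and 114, 174 and 101 in SCNT. They were higher in KDM4E-SCNT replicate 2 than in replicate 1, while ribosomal, pluripotency and most other rises were larger in replicate 1. Their part in other results was not tested.

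Other marker lists gave 1 call, beside 6.55% rises and 0.703% falls over all features. Unadjusted p was under 0.05 for 20.4% of all features. With so few members per list, a lack of calls says little about these cell types. Of 4 blood markers the haemoglobin HBA rose, from 5.58, 4.85 and 7.64 FPKM to 24.4 and 38.1 (2.18 ± 0.38), and HBB is listed at 0 in KDM4E-SCNT. The leukocyte marker PTPRC, at 7.13, 3.02 and 1.29 FPKM in IVF and 0.81 and 0.79 in KDM4E-SCNT, and CD14, at 1.39, 0.7 and 2.42 and 0 and 0.3 respectively, were lower without passing, and 1 marker was above and 2 below at an unadjusted p under 0.05. Of 6 cumulus and granulosa markers none passed in limma (0 above and 1 below at an unadjusted p under 0.05), with HAS2 at 70.3, 55.7 and 41.8 FPKM in IVF and 27.5 and 47.4 in KDM4E-SCNT. STAR stood at 86.6, 41.2 and 49.8 FPKM in IVF and 15.6 and 41.5 in KDM4E-SCNT. FSHR is listed at 0 in KDM4E-SCNT. Of 5 sperm markers none passed (0 above and 1 below at that level), with LDHC at 59.6, 80.8 and 71 FPKM in IVF and 39.3 and 45.2 in KDM4E-SCNT. Of 3 endothelial and epithelial markers none passed (0 above and 1 below), with KDR at 39, 41.5 and 48.1 FPKM in IVF and 16.1 and 31.6 in KDM4E-SCNT and KRT14 listed at 0 in KDM4E-SCNT.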

How the data were processed

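RNA-seq of pooled embryos gave 1 deposited FPKM table per library. Per the submitters' processing notes the tools included HISAT 0.1.6, StringTie 1.0.4, Bowtie2 2.2.5 and RSEM 1.2.12 with build UMD3.1; what each was used for is not given in the sources used here. The authors deposited FPKM values, which are not counts, so no count test was used and depth is unknown.

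Values were taken as log2(FPKM + 1) and fitted with limma 3.58.1 (R 4.3.3; trend and robust variance) over all 8 libraries, which share 1 estimate of spread. KDM4E-SCNT minus IVF was tested on features with FPKM of at least 1 in 2 or more of the 5 libraries, with Benjamini-Hochberg adjustment over 13798 features and a threshold of 0.05. Fold changes on this scale understate changes of low genes, and a value after ± is a standard error. Symbols came from the files, and 314 from RefSeq identifiers (ARS-UCD2.0, names only). The fit was tested on simulated data with 200 changed features. It recovered 50% of the 4-fold changes and 4% of the 2-fold changes, and 3.57% of its calls were false. Many real changes of that size may therefore not pass. Simulated noise was independent between features, and the changed features were not low in IVF. In the real data KDM4E-SCNT replicate 1 stood further from IVF than replicate 2 for most rises. The simulated rates need not hold for the real calls.

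The members and gene lists were chosen with earlier results of these data known. Named genes were the KDM4 family, up to 15 largest called rises and falls with a symbol, a mean log2 level of at least 4 and no overlap between groups (12 falls qualified), the 4 members of smallest p in each list, and the 3 most abundant members of each other-cell marker list; genes outside this rule are named to show values near IVF. Alternatives were other scalings, pseudocount 0.1, other filters, only the 5 libraries, a replicate block and leaving out each library.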

Additional observations from a re-analysis of the deposited data

How the results depend on the processing

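No feature called in the main comparison was called in the opposite direction under the 15 alternatives. Scaling left 764 to 815 rises and 79 to 145 falls, and moved the median of all features to between -0.14 and -0.07; reported values are not shifted for it. Pseudocount 0.1 gave 49 falls and no filter on low values gave 53. Fitting only the 5 libraries gave 574 rises and 55 falls. Leaving out 1 library gave 277 to 1038 rises and 20 to 233 falls, with the lowest counts without KDM4E-SCNT replicate 1 (277 and 20) and the highest without KDM4E-SCNT replicate 2 (1038 and 233); falls numbered 194 without IVF replicate 2 and 61 without IVF replicate 3. The cause of these shifts was not tested. Rises made 79.6% to 94.5% of calls. Of 100 named genes that were called, 41 held under every alternative and 58 lost the call without KDM4E-SCNT replicate 1.

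With the replicate number as a block there were 889 rises and 85 falls, of which 795 and 63 were also called without it. No source says that equal numbers mark paired samples, so the samples share only a number. Differences between replicates 1 and 2 correlated at 0.0598 between KDM4E-SCNT and IVF, across genes, which are not independent.

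Of 53 named genes that were not called, 8 turned in sign when 1 library was left out. Leaving out KDM4E-SCNT replicate 1 or 2 gave 0.40 and -0.134 for KDM4C, 3.238 and -0.186 for LGALS1, 0.029 and -1.377 for CD44, 0.536 and -1.575 for PTGS2, -0.289 and 0.026 for TEKT1, and 0.035 and -1.082 for VWF. SERPINE2 was 0.368 without IVF replicate 1, -0.289 without IVF replicate 2 and 0.048 without KDM4E-SCNT replicate 1. CD3E was -0.32 without IVF replicate 1, 0.242 without IVF replicate 3 and 0.083 without KDM4E-SCNT replicate 1. With 2 libraries against 3, a median standard error of 0.42 and unknown depth, smaller differences could not be resolved.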

Other observations

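Loci described as endogenous retroviruses, remnants of viral insertions that early embryos are known to transcribe, were grouped after the values were seen. Of 66 tested 27 rose, 0 fell and 39 did not pass in limma (42 above and 2 below at an unadjusted p under 0.05), beside 6.55% rises over all features. The median log2 difference from IVF was 1.39 in KDM4E-SCNT (1.61 in replicate 1 and 1.05 in replicate 2) and 1.88 in SCNT. Their summed FPKM was 220, 163 and 204 in IVF replicates 1 to 3, 644 and 378 in KDM4E-SCNT replicates 1 and 2, and 1490, 873 and 1200 in SCNT replicates 1 to 3. Without KDM4E-SCNT replicate 1 the rises numbered 5. Of 356 loci described as reverse transcriptase or transposase 12 rose and 4 fell, with a median of 0.05. Reads shared between such loci were not tested.

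Of the 1001 called features 85 lay outside the SCNT range on the side away from IVF, 80 of the rises (8.85%) and 5 of the falls (5.15%). Of all tested features 41.0% had both KDM4E-SCNT libraries above all SCNT libraries, and 19.8% had them below. Those named here were chosen after their values were seen. LOC100336690, described as the recombination partner RAD51AP1, stood at 4.24, 0 and 0 FPKM in IVF, 1.05, 0 and 0 in SCNT and 15.7 and 12.6 in KDM4E-SCNT. ENSBTAG00000046276.1, described as similar to the ubiquitin-conjugating enzyme UBE2D3, is listed at 0 in all IVF and SCNT libraries and stood at 4.46 and 12.9 FPKM in KDM4E-SCNT. SST, the hormone somatostatin, stood at 4.41 and 2.86 FPKM in KDM4E-SCNT, where IVF is listed at 0 in all libraries and SCNT reached 0.25. SST and ENSBTAG00000046276.1 passed the filter through KDM4E-SCNT alone, and LOC100336690 also needed KDM4E-SCNT to pass. Several were histone genes of the chromosome 23 cluster, such as HIST1H2BM at 0.9, 6.65 and 3.01 FPKM in IVF, 5.42, 4.2 and 5.65 in SCNT and 15.9 and 35.8 in KDM4E-SCNT. The difference between KDM4E-SCNT and SCNT was not tested.

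A few features described as Y-linked, picked after their values were seen, were present in IVF and at or near 0 in clones. Those named here passed the filter through IVF alone. LOC786811, described as a testis-specific Y-encoded protein and placed on chromosome 17 of this build, stood at 41.4, 33.6 and 14.3 FPKM in IVF and is listed at 0 in all 5 cloned libraries (limma adjusted p = 0.000104). LOC107131212, described as the Y-linked helicase DDX3Y and placed on chromosome X, stood at 8.99, 11.1 and 2.64 FPKM in IVF, 0.06 and 0 in KDM4E-SCNT and 0.03, 0.29 and 0.03 in SCNT (adjusted p = 0.00346). The labels give the sex of neither the embryos nor the donor cells.

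Rises were more frequent among genes of short genomic span. Over annotated nuclear genes the genomic span had a median of 7450 bp for rises, 4986 bp for falls and 22888 bp for all tested. The share that rose was 14.7% up to 3 kb, 10.6% from 3 to 10 kb, 5.47% from 10 to 30 kb, 3.31% from 30 to 100 kb and 1.12% over 100 kb. Without ribosomal proteins these shares were 12.7%, 9.23%, 5.44%, 3.31% and 1.12%. Span is that of the gene and not of the transcript, and the part of length in the other results was not tested. Of 3132 loci without annotation 7.47% rose and 1.79% fell, beside 6.28% and 0.384% of annotated features.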
